A study of Homo sapiens with 2 samples.

Results

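Barcodes with a high mitochondrial share were selected on their own UMI counts: a barcode was a member if at least 500 genes were detected in it and more than 20% of its UMIs (unique molecular identifiers, each counting 1 captured RNA molecule) came from the 13 genes whose symbols start with MT-. By this rule 481 of the 4434 barcodes with at least 500 genes were members, 306 in the CNT library and 175 in the 3CK library, and each library's barcodes at or below 20% served as the comparison (2539 in CNT and 1414 in 3CK). The data were 2 droplet libraries of colon organoids, dissociated with trypsin and derived from the established human iPS cell line 1383D6, in a study that set up an organoid model of ulcerative colitis. CNT organoids received no cytokines, and 3CK organoids were exposed for 8 days to IL-1β, TNF-α and IFN-γ, which are cytokines of the inflamed gut. Both groups had been through the same differentiation, with Activin A and Y-27632, then FGF2, then embedding in Matrigel and EGF, Forskolin, PD98059, 5-Aza-2'-Deoxycytidine and further agents. Each group was 1 library of 1 cell line, so no difference between the groups had a replicate check and no test was possible. Every 95% interval covers counting error only.

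The mitochondrial genome is a small circle that encodes 13 subunits of the respiratory chain and of ATP synthase, together with the ribosomal and transfer RNAs that translate them inside the organelle. The remaining subunits of the same complexes, the mitochondrial ribosome and the import machinery are encoded in the nucleus, made on cytosolic ribosomes and imported. Most mitochondrial mRNAs carry poly-A tails and can be caught by oligo-dT capture. In single-cell work a high mitochondrial share is commonly used as a filter on damaged or dying cells, and a high share of unspliced RNA from long genes or of nuclear noncoding RNA is commonly used to recognise nuclei.

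Total depth was 105314879 UMIs over 3257 barcodes in CNT and 94887438 UMIs over 1641 barcodes in 3CK, and the libraries shared 0 barcodes. Members held 1.90% of the UMIs of the CNT library and 1.41% of those of the 3CK library, and 16.8% and 13.5% of all mitochondrial UMIs. MT-CO1 and MT-CO2, subunits of cytochrome c oxidase, were found in 306 of 306 and 175 of 175 members. Because these genes entered the rule, their levels are a description. MT-CO1 made up a median of 4.89% of the UMIs of a CNT member and 5.24% of a 3CK member, and MT-CO2 made up 7.31% and 6.76%. The markers name a share of RNA and no cell type. Just inside the threshold the nearest members had 20.03% (CNT) and 20.44% (3CK) mitochondrial UMIs, and just outside it the nearest barcodes had 19.78% and 19.95%.

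Among genes outside the MT- genes with at least 50 CPM (UMIs per 1000000 UMIs from genes other than MT- genes, summed over barcodes) in members of both libraries, ranked by the smaller ratio of the 2 libraries, those furthest above the comparison were MTRNR2L12 and MTRNR2L8, nuclear copies of the mitochondrial large ribosomal RNA gene MT-RNR2. MT-RNR2 itself was not among the 13 MT- genes and did not enter the rule. In RefSeq's annotation of GRCh38, MTRNR2L12 is a pseudogene locus of 1038 bases on the minus strand of chromosome 3 (96617186 to 96618223), and MTRNR2L8 one of 1290 bases on the minus strand of chromosome 11 (10507887 to 10509176). The annotation the authors counted with may place these genes elsewhere, so the loci shown may differ from the counted features. MTRNR2L12 aligned without gaps to bases 13 to 1048 of the 1559-base MT-RNR2 gene (chromosome M, 1671 to 3229) at 95.1% identity, with 985 identical and 51 mismatched bases. MTRNR2L8 aligned to bases 13 to 1302 at 93.0% identity, with 1200 identical and 90 mismatched bases. The last 120 bases of MT-RNR2 that both copies cover are shown 5′ to 3′ from GRCh38, since they show how close a read of either source would be to the other. Capitals mark bases that differ from MT-RNR2, 4 in MTRNR2L12 and 6 in MTRNR2L8.
MT-RNR2, chrM:2599-2718, plus strand: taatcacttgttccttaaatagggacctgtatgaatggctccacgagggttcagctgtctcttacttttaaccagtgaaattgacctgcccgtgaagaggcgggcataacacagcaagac
MTRNR2L12, chr3:96617188-96617307, minus strand: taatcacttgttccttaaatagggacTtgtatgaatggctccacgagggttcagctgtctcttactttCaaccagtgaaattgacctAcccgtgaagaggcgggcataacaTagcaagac
MTRNR2L8, chr11:10508141-10508260, minus strand: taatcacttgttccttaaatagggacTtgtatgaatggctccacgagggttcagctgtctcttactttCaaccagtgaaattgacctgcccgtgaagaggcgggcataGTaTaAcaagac
With stretches this alike, UMIs listed under MTRNR2L genes and RNA of MT-RNR2 cannot be told apart from the counts alone.

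MTRNR2L12 was at 10342 CPM in CNT members and at 198 CPM in the CNT comparison, a log2 ratio of 5.71. In 3CK it was at 8351 CPM in members and 165 CPM in the comparison, a log2 ratio of 5.67. MTRNR2L8 was higher by 5.01 on the log2 scale in CNT members and by 4.77 in 3CK members. At least 1 UMI of the 11 MTRNR2L genes was present in 306 of 306 CNT members and 174 of 175 3CK members. Set against mitochondrial UMIs instead of other UMIs, the 11 genes gave 2.06 UMIs per 100 mitochondrial UMIs in CNT members and 0.666 in the comparison, a ratio of 3.1 (95% interval 3.03 to 3.16). The ratio was 2.86 (2.79 to 2.94) in 3CK. Both pooled ratios lay above those within either depth class, and members and comparison differ in their mix of depths. Among barcodes with at least 10000 UMIs the ratio was 2.03 (1.97 to 2.10) in CNT and 1.57 (1.5 to 1.63) in 3CK. Among barcodes under 10000 UMIs it lay below 1, at 0.910 (0.866 to 0.957) in CNT and 0.763 (0.722 to 0.807) in 3CK, so shallow members had slightly fewer MTRNR2L UMIs per mitochondrial UMI than shallow barcodes at or below 20%. Counting the MTRNR2L genes as mitochondrial would have made 311 barcodes members in CNT and 181 in 3CK.

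Members were shallow in both libraries. The median member held 1786 UMIs (CNT) or 2371 UMIs (3CK), whereas the comparison medians were 28476 and 63177. Members were present at 10.8% of barcodes (9.64% to 12.0%) in CNT and 11% (9.52% to 12.7%) in 3CK, a difference of 0.258 percentage points (95% interval −1.62 to 2.22). Their share depended on depth. Of the barcodes with at least 10000 UMIs, called deep here, 45 of 1519 in CNT (2.96%, 2.17% to 3.94%) and 28 of 1037 in 3CK (2.70%, 1.80% to 3.88%) were members. Of the barcodes under 10000 UMIs, 261 of 1326 in CNT (19.7%, 17.6% to 21.9%) and 147 of 552 in 3CK (26.6%, 23.0% to 30.5%) were members, a difference of 6.95 points (2.79 to 11.3). This class mixed depths unequally, with 580 CNT and 44 3CK barcodes under 1000 UMIs, of which 5.86% and 20.5% were members. From 1000 to 2000 UMIs the shares were 31.3% in CNT and 24.6% in 3CK. They were 27.2% and 32.7% from 2000 to 5000, and 32.8% and 25.3% from 5000 to 10000. The direction thus varied with depth. In CNT the share was highest, at 32.8%, between 5000 and 10000 UMIs and was 0.361% above 100000 UMIs, where 1 of 277 barcodes was a member. In 3CK it was highest, at 32.7%, between 2000 and 5000 UMIs, and 0 of 418 barcodes above 100000 UMIs were members. Over both libraries 408 barcodes under 10000 UMIs were members and 1470 were not. A further 338 of 412 CNT barcodes and 52 of 52 3CK barcodes with fewer than 500 genes also had more than 20% mitochondrial UMIs and were left out by the rule.

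**Figure D1:**
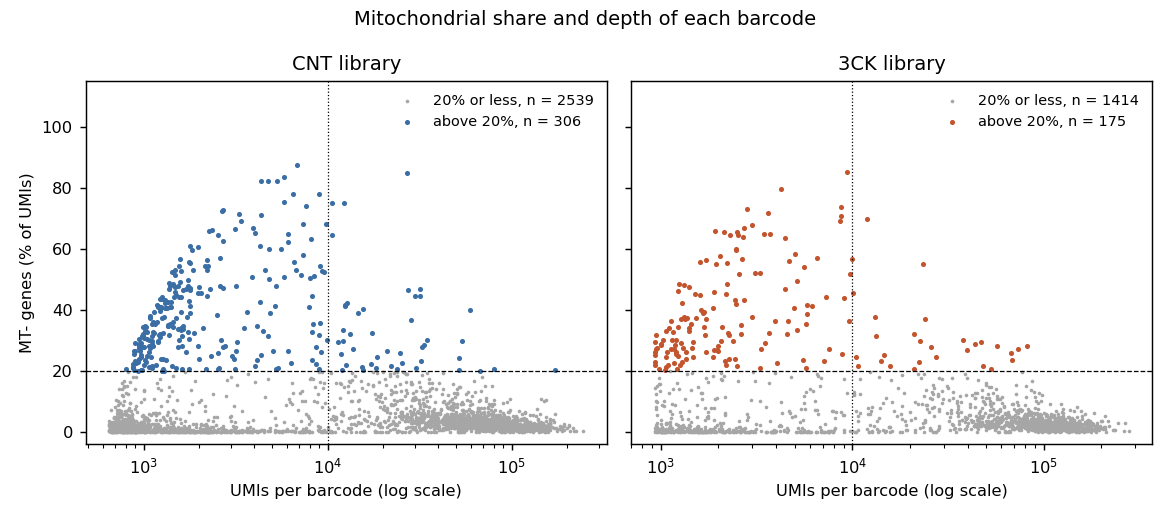
Percent of a barcode's UMIs from the 13 MT- genes (y axis) against its total UMIs (x axis, log scale) for barcodes with at least 500 genes, 1 panel per library; the dashed line is the 20% threshold, the dotted line marks 10000 UMIs and coloured points are members. Most members lie under 10000 UMIs, 261 of 306 in CNT and 147 of 175 in 3CK, and reach shares of 87.4% and 85.3%.

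Deep and shallow members differed from barcodes of their own depth in different quantities. In deep members both numbers differed from the deep comparison: CNT deep members had a median of 6264 mitochondrial UMIs against 1881, and 14451 other UMIs against 60525. In 3CK the medians were 7739 against 2275 mitochondrial UMIs and 16965 against 87949 other UMIs. In shallow members the median of other UMIs was 903 against 972 in shallow CNT barcodes at or below 20%, and lower in 3CK, at 1025 against 1680. Their mitochondrial UMIs were far higher, at 612 against 8 in CNT and 692 against 9 in 3CK. Across shallow CNT barcodes the median of other UMIs stayed between 834 and 1290 in all 7 classes of mitochondrial share, while the median of mitochondrial UMIs ran from 3 in the class up to 1% to 2621 in the class above 50%. Across shallow 3CK barcodes the median of other UMIs lay between 1528 and 1890 in the 4 classes up to 20% and between 994 and 1096 in the 3 classes above it. The selection partly sets this pattern. The minimum of detected genes puts a floor under other UMIs, and the depth limit caps the total. The lowest count of other UMIs was 632 in shallow CNT members and 613 in their comparison. The classes were cut on mitochondrial share, so the rise of mitochondrial UMIs in shallow barcodes is a description.

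In median ribosomal and long-gene content per barcode, shallow members lay near shallow barcodes at or below 20%. In CNT, cytosolic ribosomal protein genes took a median of 12.7% of the other UMIs of a shallow member and 12.8% of a shallow comparison barcode, and genes longer than 100 kb took 14.0% and 14.7%. MALAT1, a noncoding RNA kept in the nucleus, took 0.578% and 0.544%. In 3CK the medians were 9.79% and 10.5% for ribosomal protein genes, 11.9% and 11.6% for long genes, and 0.347% and 0.212% for MALAT1. TTR, which encodes the thyroid hormone carrier transthyretin made by liver, took 3.65% and 3.20% in CNT and 1.17% and 0.881% in 3CK. Marker lists differed more in 3CK than in CNT: mesenchymal markers took 0.412% and 0.211% in 3CK (0.709% and 0.619% in CNT), epithelial markers 2.59% and 1.78% (1.12% and 0.997%), and hepatic markers 3.04% and 2.19% (7.28% and 6.18%). For long genes the sums, which weight barcodes by depth, differed more than the medians in CNT. Measured genes longer than 100 kb made up 22.7% of the summed other UMIs of shallow CNT members against 17.2% in shallow comparison barcodes. In 3CK they made up 13.5% against 13.7%. The RNA that droplets hold without a cell was not analysed here, and its part in these values was not tested.

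Deep members carried a different RNA. Cytosolic ribosomal protein genes took a median of 2.12% of the other UMIs of a CNT deep member against 16.2% in the deep comparison, and 3.08% against 13.3% in 3CK. Genes longer than 100 kb took 40.4% against 9.85% in CNT and 33.5% against 9.14% in 3CK. MALAT1 took 4.05% against 0.0946% in CNT and 0.832% against 0.0752% in 3CK. Ribosomal protein genes were under 5% of the other UMIs in 37 of 45 CNT deep members (82.2%, 67.9% to 92.0%) and in 18 of 28 3CK deep members (64.3%, 44.1% to 81.4%). In the deep comparison 200 of 1474 (13.6%, 11.9% to 15.4%) and 196 of 1009 (19.4%, 17.0% to 22.0%) barcodes were under 5%. The threshold of 20% did not mark where this profile began: the 127 deep CNT barcodes and the 77 deep 3CK barcodes with 10% to 20% mitochondrial UMIs already had medians of 1.81% and 2.20% ribosomal UMIs. Conversely, 8 CNT and 10 3CK deep members had at least 5% ribosomal UMIs. The 6 deep 3CK members with 30% to 50% mitochondrial UMIs had a median of 9.35% ribosomal UMIs and 0.071% MALAT1.

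**Figure D2:**
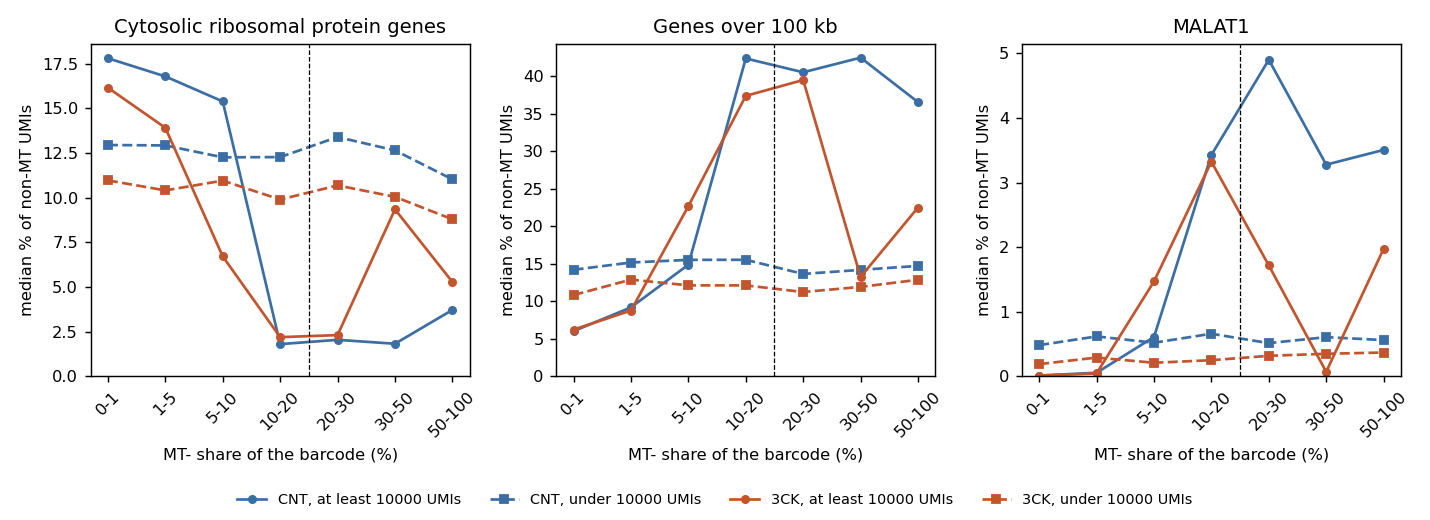
Median percent of a barcode's UMIs outside the MT- genes that came from cytosolic ribosomal protein genes, from genes over 100 kb and from MALAT1 (y axes) in 7 classes of mitochondrial share (x axis), by library and depth; the dashed line is the 20% threshold. Shallow barcodes (squares) run nearly level in ribosomal and long-gene content, while deep barcodes (circles) shift. In CNT ribosomal content drops in the 10% to 20% class, whereas long-gene content and MALAT1 already rise in the 5% to 10% class. In 3CK all panels already shift in the 5% to 10% class. The deep classes above 30% hold 15 and 4 CNT barcodes and 6 and 2 3CK barcodes.

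Depth was also equalised by drawing 600 UMIs outside the MT- genes from each barcode, which left out 0 barcodes. A CNT deep member then showed a median of 496 genes against 431 in the deep comparison, and a 3CK deep member 505.5 against 443. Unthinned, the medians were 5403 genes in CNT deep members and 8039 in the deep comparison. CNT shallow members showed 451 genes against 468, and 3CK shallow members 452 against 468. Ribosomal UMIs among the 600 numbered 15 against 96 in CNT deep members and 75 against 77 in CNT shallow members.

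The mix of the 13 mitochondrial mRNAs did not enter the rule, which used their sum. MT-CO2 supplied 21.5% of the mitochondrial UMIs of CNT deep members against 27.5% of those of the deep comparison, and 17.0% against 26.5% in 3CK. In shallow barcodes it supplied 20.8% against 21.4% in CNT and 19.8% against 21.2% in 3CK, so the gap was narrow there. MT-ND1, a complex I subunit, supplied 11.3% in 3CK deep members against 6.69% in their comparison, and 6.70% against 5.47% in CNT. MT-ND5, also of complex I, supplied 5.38% in 3CK deep members against 2.91%, and in CNT 1.26% against 1.76%, so the libraries differed in direction. The 3CK sum lay above the upper quartile of the 28 barcodes (4.84%), whose median was 3.32% against 2.26%. MT-CO3, of complex IV, supplied 15.3% in CNT deep members against 10.9%, and 7.83% against 8.09% in 3CK. Its median per barcode was higher in deep members of both libraries, at 14.2% against 7.65% in CNT and 8.06% against 6.86% in 3CK. The 3CK direction of MT-CO3 therefore depends on the weighting. Among CNT deep members MT-CO3 varied widely between barcodes, with quartiles of 8.40% and 19.1%. These shares are UMI fractions that are not scaled to gene length, and MT-ATP8 with MT-ATP6 and MT-ND4L with MT-ND4 overlap on the genome, so the division of UMIs within each of these pairs is uncertain.

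**Figure D3:**
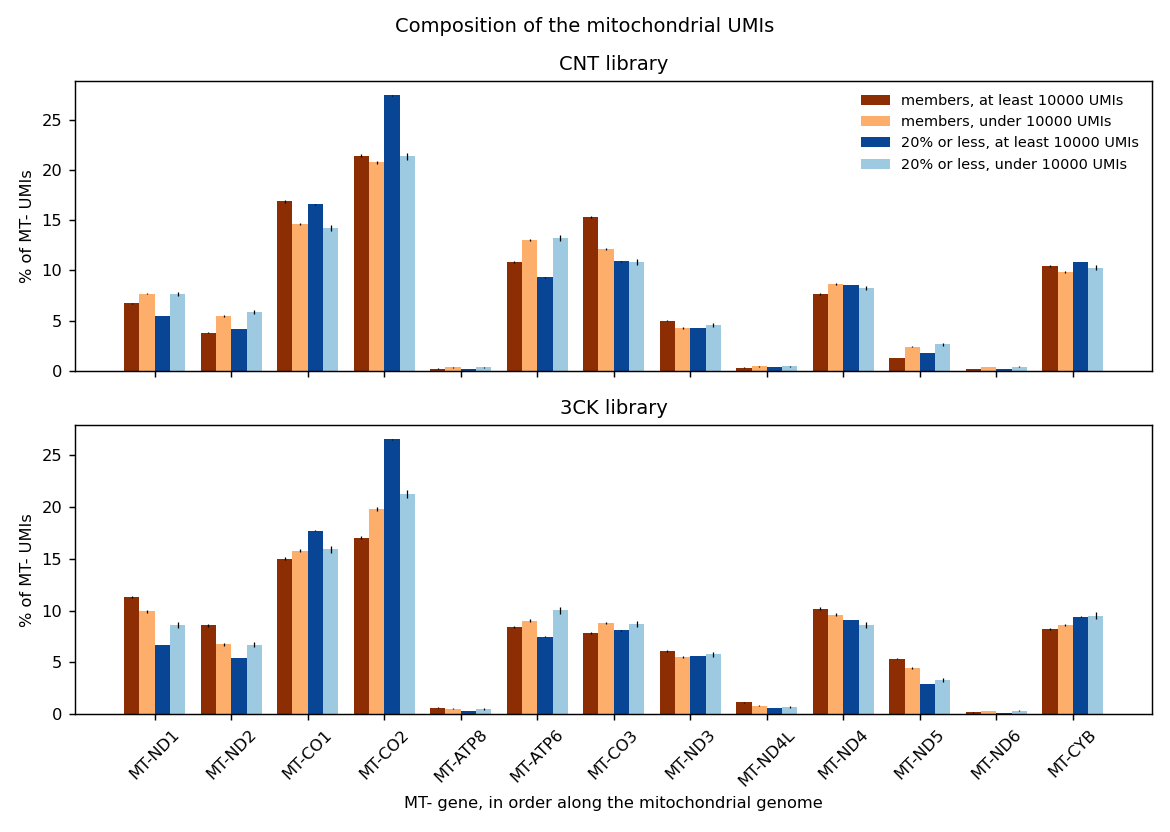
Share of mitochondrial UMIs that came from each MT- gene (y axis, percent) in members and in barcodes at or below 20%, by library and depth; bars start at 0 and thin lines are 95% intervals for counting error. Deep members differ most from the deep comparison at MT-CO2 (21.5% against 27.5% in CNT, 17.0% against 26.5% in 3CK), while shallow members lie near shallow barcodes.

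Genes were next compared one by one on UMIs summed over the members and over the comparison of the same library. A log2 ratio of 1 or more is called 2-fold higher, and with 1 library per group this is a size and not a test. Of 11367 genes with a mean of at least 10 CPM in CNT, 42.8% were at least 2-fold higher in members and 11.9% at least 2-fold lower, with a median log2 ratio of 0.76 over all genes. Of 10606 genes in 3CK, 34.2% were higher and 8.07% lower, with a median of 0.59. In deep barcodes the shares were 47.1% and 15.6% in CNT and 41.5% and 11.4% in 3CK. In shallow barcodes they were 11.2% and 5.26% in CNT and 11.3% and 13.2% in 3CK. Deep members, which were 45 and 28 barcodes, gave 69.8% and 73.9% of the members' summed UMIs outside the MT- genes, and the deepest member alone gave 10.6% in CNT and 6.54% in 3CK, so the summed values follow the deep members.

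Nuclear genes whose products work in mitochondria did not run with the mitochondrial mRNAs. Of 75 nuclear-encoded subunits of the respiratory chain and ATP synthase, 58 were at least 2-fold lower in CNT members and 1 was higher, with a median log2 ratio of −1.5. In 3CK 44 of 75 were lower and 1 was higher, with a median of −1.08. NDUFA4 was at 324 CPM in CNT members and 1106 CPM in the comparison (log2 ratio −1.77), and NDUFB11 was at 83.9 and 341 CPM (−2.02). ATP5F1E, a subunit of ATP synthase, was at 591 CPM in 3CK members and 1279 CPM in the comparison (−1.11). The exceptions were the higher NDUFS1, an iron-sulfur subunit of complex I, at 78.5 against 39.0 CPM in CNT (1.01), and SDHA, the flavoprotein of succinate dehydrogenase, at 81.7 against 40.5 CPM in 3CK (1.01). Since 42.8% of all genes in CNT and 34.2% in 3CK were at least 2-fold higher, neither gene stands out from all genes. In shallow members the median over the 75 genes was −0.45 in CNT and −0.40 in 3CK, with 2 and 3 genes at least 2-fold lower.

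Of 44 measured mitochondrial ribosomal protein genes, 31 were lower and 0 higher in CNT members (median −1.29), and 27 were lower and 0 higher in 3CK (median −1.04). MRPL36 was lower by 2.12 on the log2 scale in CNT. Of 25 measured genes for import and protein quality control, 11 were lower in CNT and 9 in 3CK, beside 11.9% and 8.07% of all genes. TOMM7, of the outer membrane translocase, was at 165 CPM against 530 in CNT (−1.69) and 166 against 457 in 3CK (−1.46). LONP1, a matrix protease, was higher in CNT at 73.9 against 36.4 CPM (1.02), as were 42.8% of all genes. Of 21 measured genes that express mitochondrial DNA, 11 were at least 2-fold higher and 3 lower in CNT (median 1.02), and of 22 in 3CK 10 were higher and 1 lower (median 0.90), which is near the shares and medians of all genes and gives the list no direction of its own. NRF1, a transcription factor of mitochondrial biogenesis, was at 72.3 against 18.3 CPM in CNT (1.98), and SLIRP, an mRNA-binding partner of LRPPRC, at 111 against 270 CPM (−1.28). With factors from trimmed means (TMM), the median of this list was −0.12 in CNT and 0.00 in 3CK, and with each barcode weighted equally it was −0.01 and −0.29. Of 15 measured mitophagy genes, 4 were higher and 4 lower in CNT and 2 higher and 0 lower in 3CK. Of all genes, 42.8% were higher and 11.9% lower in CNT, and 34.2% and 8.07% in 3CK.

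Cytosolic ribosomal protein genes were lower nearly without exception: 77 of 78 in CNT members by at least 2-fold (median −1.61) and 63 of 78 in 3CK members (median −1.29), with 0 higher in either. RPS19 was at 1782 CPM in CNT members against 5718 CPM and at 2340 against 5308 CPM in 3CK. RPS15A was lower by 2.05 and 1.93 on the log2 scale, and RPL31 by 0.91 and 0.41. Ribosomal protein genes have many processed pseudogenes, so the division of UMIs between copies is uncertain. In shallow members 0 of 78 reached 2-fold in either library, with medians of −0.60 and −0.43. Beside 11.9% of all genes in CNT and 8.07% in 3CK, 14 of 20 abundant cytosolic mRNAs were lower in CNT and 12 in 3CK. The ferritin mRNAs FTH1 and FTL were among them, FTH1 lower by 2.03 and 1.84 on the log2 scale and FTL by 1.80 and 1.63.

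RNAs kept in the nucleus were higher in members of both libraries. Of 7 measured nuclear noncoding RNAs, 7 were at least 2-fold higher in CNT members and 5 in 3CK members, with the same counts in deep members alone. Among all measured long noncoding RNA genes, 77.3% of 779 were at least 2-fold higher in CNT and 70.6% of 650 in 3CK. In deep barcodes these shares were 81.9% and 77.6%. With only 7 genes, the counts of neither library set the list apart from other long noncoding RNAs. MALAT1 was at 36496 CPM in CNT members against 7122 (log2 ratio 2.36) and at 19026 against 8311 in 3CK (1.19). NEAT1, the scaffold of paraspeckles, was higher by 2.35 in CNT and by 1.71 in 3CK, and PVT1 by 2.98 in CNT. MEG3 was lower in 3CK members by 0.77. In 3CK shallow members the direction turned, with 0 of 7 higher and 4 lower (median −1.21), and MALAT1 lower by 0.94 in the sum, which weights barcodes by depth, although its median share per barcode was higher (0.347% against 0.212%), so this direction depends on the weighting. Weighting each 3CK barcode equally gave a median of −0.40 for the list in place of 1.32. The ratio also followed the length of the gene: the median was −1.11 for CNT genes up to 5 kb, −0.32 for 5 to 20 kb, 0.78 for 20 to 100 kb and 1.66 above 100 kb, where 81.8% of genes were at least 2-fold higher. In 3CK these medians were −0.78, −0.14, 0.62 and 1.30. In shallow barcodes they ran from −0.34 to 0.39 in CNT and from −0.16 to −0.24 in 3CK.

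**Figure D4:**
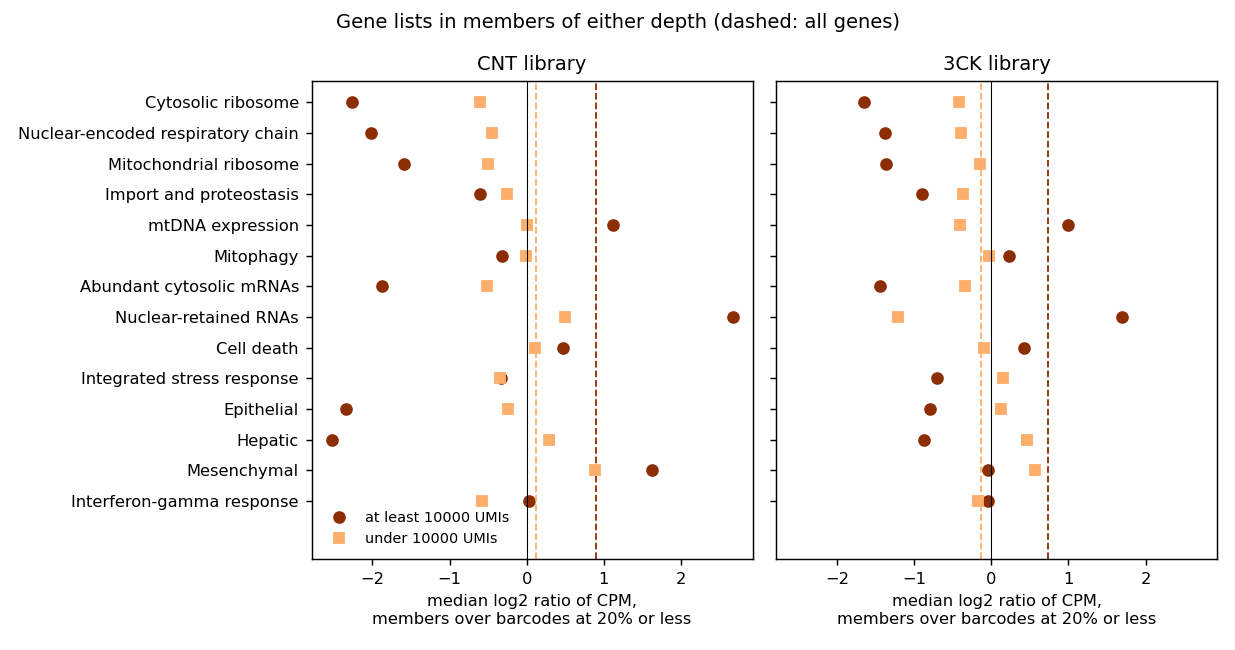
Median log2 ratio of CPM, members over barcodes at or below 20% of the same library and depth, for 14 gene lists (x axis, log2), with deep barcodes as circles and shallow ones as squares; dashed lines are the medians over all genes. Cytosolic ribosomal protein genes lie at −2.27 (deep) and −0.60 (shallow) in CNT and at −1.66 and −0.43 in 3CK.

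Stress and death lists showed no common direction. Of 21 measured genes of cell death, 5 were higher and 1 lower in CNT, and of 24 in 3CK 5 were higher and 0 lower, below the 42.8% and 34.2% higher among all genes. APAF1, of the apoptosome, was at 44.6 against 17.2 CPM in CNT (1.38), and CYCS, its activator cytochrome c, was at 103 against 223 CPM (−1.11). Of 17 measured genes of the integrated stress response in CNT and 18 in 3CK, 0 were higher and 1 was lower in each. Of 12 p53 targets, 4 were higher and 0 lower in CNT (median 0.64) and 4 higher and 2 lower in 3CK (median 0.31), and the most abundant of them, MDM2, was higher by 1.24 and 1.18. Of 15 antioxidant genes in CNT 8 were lower and 0 higher, and in 3CK 5 of 17 were lower and 1 was higher. Heat shock genes gave 0 higher and 1 lower of 12 in each library. Integrated stress, heat shock and cell death medians all lay below the medians over all genes.

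Markers of cell types were read the same way, beside the shares of all genes (42.8% higher and 11.9% lower in CNT, 34.2% and 8.07% in 3CK). The labels call both samples colon epithelial cells, and all 13 epithelial markers had UMIs in the members of both libraries. Their summed level was 6057 CPM in CNT members against 12381 CPM, and 13648 against 20984 CPM in 3CK. EPCAM was at 330 against 854 CPM in CNT (−1.37) and 690 against 765 CPM in 3CK (−0.15), and CDH1 was at 118 against 116 and 537 against 216 CPM. Hepatic markers, which the comparison carried in high amount, were 2-fold lower for 9 of 14 genes in CNT and 0 of 14 in 3CK, where 1 was higher, with summed levels of 27680 against 84597 CPM and 21145 against 30377 CPM. In shallow members the hepatic sums were 62515 against 58787 CPM in CNT and 46645 against 37134 CPM in 3CK. TTR was at 12947 against 50657 CPM in CNT and 8017 against 15702 CPM in 3CK. Mesenchymal markers were 2-fold higher for 9 of 13 genes in CNT (median 1.53, against 0.76 over all genes) and for 2 of 13 in 3CK (median 0.31), with sums of 12410 against 6426 CPM and 3193 against 3390 CPM. COL1A1, the main fibrillar collagen chain, was at 2371 against 724 CPM in CNT with UMIs in 152 of 306 members, 25% of them in 1 barcode. Leaving out the 5 deepest members gave a mesenchymal median of 1.51 in CNT.

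Of markers of other cells, all 8 erythroid markers were at 0 UMIs in the members of both libraries. The leukocyte markers PTPRC and CD79A were at 0, and the 9 leukocyte markers summed to 26.2 CPM in CNT members against 90.4 and to 81.7 against 135 CPM in 3CK. CDH5 and CLDN5 were at 0 among 7 endothelial markers, and LGR5 among 9 of stem cells. The goblet marker MUC2 was at 0, whereas AGR2 was lower in CNT at 374 against 1475 CPM and in 3CK at 585 against 1168 CPM. The pluripotency genes NANOG and SOX2 were at 0, and LIN28A was seen with 19 UMIs in CNT members and with 23 in 3CK members. Among enteroendocrine markers CHGA had 137 UMIs in 7 CNT members, 75.9% of them in 1 barcode, and 0 UMIs in 3CK members. A doublet score marked 13 of 306 CNT members and 52 of 2539 CNT comparison barcodes. In 3CK it marked 0 of 175 members and 20 of 1414 comparison barcodes. The number marked in each library was set in advance, at 0.8% per 1000 barcodes.

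Beyond the 2 MTRNR2L genes, the genes highest in both libraries were mostly concentrated in few barcodes. AC064834.1 was higher by 3.90 on the log2 scale in CNT and 3.82 in 3CK but was found in 6 members of each library, with 85.0% of its CNT UMIs in 1 of them. KLHL29 was higher by 3.66 and 3.68, with 38.0% of its UMIs in 1 CNT member and 74.7% in 1 3CK member. AL163541.1, LINC00624, AC019197.1 and FMN1 were higher by 3.82, 3.5, 3.12 and 4.28 in CNT and by 3.47, 3.46, 3.15 and 3.06 in 3CK. PLCG2, a phospholipase of immune receptor signalling, was higher by 3.35 and 3.59. It had UMIs in 45 CNT members, with 60.7% of them in 1 barcode, and in 40 3CK members, with 67.8% in 1. Within a depth class its ratios were smaller, at 2.19 (deep) and 1.63 (shallow) in CNT and 0.50 and 1.21 in 3CK. The median over all genes in deep 3CK barcodes was 0.73. The genes lowest in both libraries had UMIs in 14 to 244 CNT members. COA3, an assembly factor of cytochrome c oxidase, was at 21.5 against 94.7 CPM in CNT and 20.1 against 88.0 CPM in 3CK. NAXE, DUSP23, PCBD1, ZNF593 and PPDPF were lower by 2.05, 1.99, 2.42, 1.97 and 2.12 on the log2 scale in CNT and by 2.26, 2.05, 1.97, 1.87 and 1.78 in 3CK. PHGR1 was at 171 against 872 CPM in CNT and 62.7 against 235 CPM in 3CK. PLAAT4 was at 13.9 against 56.4 CPM in CNT and at 878 against 3019 CPM in 3CK, so it was lower in members at either level.

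Within the members, 3CK was compared with CNT to ask whether the cytokine program was present in them. Of 11930 genes, 10.2% were at least 2-fold higher and 16.8% at least 2-fold lower in 3CK members. In the comparison barcodes 5.75% of 9766 genes were higher and 6.16% lower. Of 28 genes induced by interferon gamma, 28 were higher in 3CK members, with a median log2 ratio of 4.36 against 4.49 in the comparison. The median was 4.33 in deep and 4.94 in shallow members. ISG15, a ubiquitin-like protein, was at 133 CPM in CNT members and 2660 CPM in 3CK members (log2 ratio 4.32, 95% interval 4.10 to 4.55). GBP5, a guanylate-binding protein, had 1 UMI in CNT members and 567 UMIs in 95 3CK members (log2 ratio 9.69, 7.20 to 14.99). CXCL10, a T-cell chemoattractant, had 0 UMIs in CNT members and 1139 in 113 3CK members, at least 552-fold higher against a floor of 3 UMIs over the group, with 52.8% of its UMIs in 1 barcode and 538 without it. IDO1, the tryptophan-degrading enzyme, had 0 and 408 UMIs in 98 members, at least 198-fold higher, and CXCL11 had 0 and 257 UMIs, at least 125-fold higher, with 50.6% in 1 barcode and 127 without it.

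The antiviral sensors OAS3 and OAS2 had 2 and 1 UMIs in CNT members and 240 and 87 UMIs in 3CK members, log2 ratios of 7.45 (5.58 to 10.50) and 6.98 (4.47 to 12.30). LCN2, an iron-scavenging antibacterial protein, had 1 and 311 UMIs (8.82, 6.33 to 14.13), and NOS2, inducible nitric oxide synthase, had 1 and 144 UMIs (7.71, 5.21 to 13.02). AC025580.2 had 1 and 85 UMIs (6.95, 4.43 to 12.27). All 8 measured genes of MHC class I presentation were higher (median 3.21, against 3.46 in the comparison). B2M was at 953 and 6639 CPM, and HLA-F had 3 and 257 UMIs (6.96, 5.40 to 9.25). HLA genes resemble one another, so the division of UMIs between them is uncertain. Of 23 measured NF-κB targets 19 were higher and 0 lower (median 2.78, against 3.22 in the comparison). IL32 was at 72.3 and 1616 CPM, and CCL20 had 9 and 285 UMIs. Of 25 cell death genes 15 were higher and 1 lower, with a median of 1.33 against 1.26 in the comparison. TNFSF10, the death ligand TRAIL, was higher by 4.81 and CASP9, an initiator caspase, had 25 and 2 UMIs (log2 ratio −3.1, −6.23 to −1.10).

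The interferon gamma genes were also counted per barcode at equal depth. Among 600 UMIs drawn from each barcode, at least 1 UMI of the 28 interferon gamma genes was present in 91 of 306 CNT members (29.7%, 24.7% to 35.2%) and 173 of 175 3CK members (98.9%, 95.9% to 99.9%). The comparison shares were 35.7% in CNT and 98.4% in 3CK. Without thinning, the shares were 56.9% in CNT members and 100% in 3CK members, at median depths of 1014 and 1270 UMIs outside the MT- genes. These genes took a median of 0.0302% of the other UMIs of a CNT member and 1.35% of a 3CK member, against 0.0577% and 1.37% in the comparison. Free RNA was not measured, and its part in these shares was not tested.

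**Figure D5:**
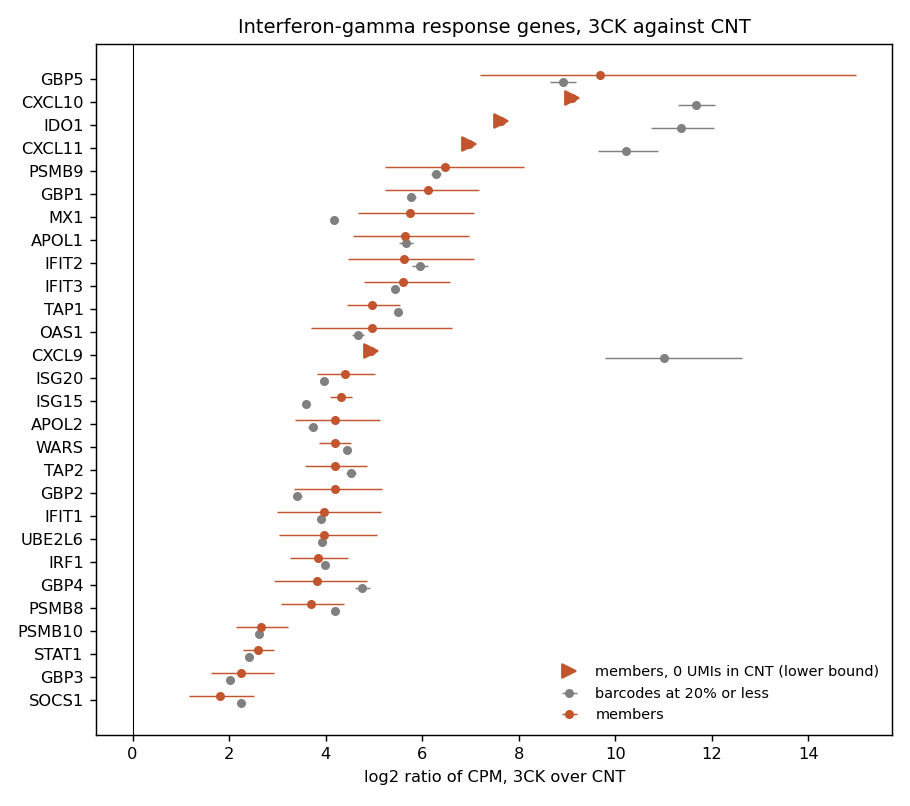
Log2 ratio of CPM, 3CK over CNT (x axis), of the 28 interferon gamma response genes (y axis) in members and in barcodes at or below 20%; bars are 95% intervals for counting error, and triangles are lower bounds for 4 genes at 0 UMIs in CNT members. Every gene lies above a log2 ratio of 1 in members, from SOCS1 at 1.82 to GBP5 at 9.69.

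Among the genes lowest in 3CK members, some were spread over many CNT members and others rested on 1 of them. GSTA2, a glutathione transferase, had 164 UMIs in 92 CNT members and 1 in 3CK members (log2 ratio −6.82, −12.13 to −4.32), and RGN, regucalcin, had 119 and 1 (−6.35, −11.67 to −3.85). POSTN, a matrix protein, had 338 and 2 UMIs (−6.86, −9.91 to −5.0), and COL11A1, a collagen chain, had 183 and 2 (−5.97, −9.03 to −4.10). Of the CNT UMIs 41.4% for POSTN and 32.2% for COL11A1 were in 1 barcode, and 198 were left for POSTN without it. CLSTN2 had 243 and 1 UMIs, but 93.8% of the CNT UMIs were in 1 barcode, as were 61.1% of the 229 of LINC01517 and 80.5% of the 87 of ASPM, a spindle protein. Without that barcode 15 UMIs were left for CLSTN2, 89 for LINC01517 and 17 for ASPM. CTNND2 had 100 and 1 UMIs and PTPRT 89 and 1. Mesenchymal markers were lower for 11 of 13 genes (median −2.99) in members and for 9 of 13 (median −1.25) in the comparison. Of the mesenchymal UMIs of CNT members, 43.3% were in 5 barcodes. The median share per barcode was 0.691% in CNT and 0.373% in 3CK members, and 0.433% and 0.186% in the comparison. Whether the libraries differed more in members than in the comparison therefore depends on the weighting. COL1A1 was at 2371 CPM in CNT members and 175 in 3CK members (−3.76), and MEG3 had 1500 and 24 UMIs (−5.42). Epithelial markers were higher for 10 of 13 genes (median 1.25, against 0.51 in the comparison), EPCAM by 1.06. Hepatic markers had a median of −0.20 in members, with 1 higher and 1 lower, and of −1.37 in the comparison, with 10 of 14 lower. Nuclear respiratory subunits had a median of 0.27, with 4 of 75 higher, and cytosolic ribosomal protein genes of 0.08, with 0 of 78 past 2-fold. In these summed counts fewer cells of a type and less RNA per cell cannot be told apart.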

How the data were processed

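The files are raw UMI counts per gene and barcode (10x single cell 3′ v3.1 libraries, about 8300 cells loaded each), deposited by the authors for 36601 genes in 2 libraries. Cell Ranger 7.1.0 and GRCh38 are named in the submitters' processing notes. Barcodes were kept as deposited and grouped by genes detected (500) and MT- share (20%). No annotation of cells was used. UMIs outside the MT- genes were summed over the barcodes of a group and scaled to CPM, with a mean of at least 10 CPM required. Where a gene had 0 UMIs in a group, 3 were assumed over the group. Intervals at 95% are exact Poisson or Clopper-Pearson, from the binomial for ratios and by Newcombe's method for differences, and cover counting error only. Doublets were scored with Scrublet in scanpy 1.11.5 at 0.8% per 1000 barcodes and kept. Thinning drew 600 UMIs per barcode. TMM factors came from edgeR 4.0.16, used for scaling only. Gene length is the span in GENCODE 44, which matched 36366 gene IDs. MT-RNR2 and its copies were read from the reference genome at RefSeq loci and aligned with Biopython 1.88.

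Named genes were the 10 highest and 10 lowest ratios with at least 50 CPM in the higher group (for members over comparison, by the ratio nearest 0 of the 2 libraries), and of each list the most abundant, highest and lowest gene. Genes named outside this rule (NEAT1, EPCAM and markers at 0 among them) were chosen after their values were seen, and some genes it selected are not reported here. The members and the gene lists were chosen with earlier results of these data known. Of 658 listed symbols 656 were found. The steps were tested on simulated data. Alternatives were other thresholds, depths, scalings and filters, and 2 added after seeing the data: leaving out the 5 deepest members, and counting MTRNR2L genes as mitochondrial.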

Additional observations from a re-analysis of the deposited data

Results flagged for a closer look

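Genes of the cell cycle had median ratios of opposite sign in the 2 libraries when members were set against barcodes at or below 20%. The median log2 ratio over the measured genes was 0.58 in CNT, with 7 of 16 higher and 0 lower, and −1.25 in 3CK, with 0 of 10 higher and 6 lower. Over all genes 42.8% were higher and 11.9% lower in CNT (median 0.76), and 34.2% and 8.07% in 3CK (median 0.59). The CNT count of higher genes was thus near the share of all genes, and the CNT median lay below that of all genes. The difference between the libraries was not tested, since each group is 1 library. Of the 763 UMIs of these genes in CNT members, 54.7% were in 1 barcode and 75.1% in 5 barcodes, and 108 of 306 members had any. MKI67, a nuclear protein of cycling cells, had 133 UMIs in 14 CNT members, with 71.4% of them in 1 barcode. Without the 5 deepest members the CNT median was −1.03, and with each barcode weighted equally it was −0.49, so the CNT direction rested on few barcodes. In 3CK 59 members held 144 UMIs.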

How the results depend on the processing

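The share of members in CNT (10.8%) and 3CK (11%) was 17.5% and 19.0% with a threshold of 10%, 6.78% and 6.29% with 30%, 2.96% and 2.70% in barcodes of at least 10000 UMIs, 19.7% and 26.6% below that, and 5.82% and 5.47% among barcodes with at least 1000 genes. It moved less than its interval without doublets and with MTRNR2L genes counted as mitochondrial. The median log2 ratio of cytosolic ribosomal protein genes stayed below 0 in all 12 alternatives of each library. In CNT (−1.61) it was −1.38 with a threshold of 30%, −2.27 in deep and −0.60 in shallow barcodes, −2.01 with at least 1000 genes, −0.45 with equal weight per barcode, −1.81 when scaled without the 50 most abundant genes and −2.75 with TMM factors. In 3CK (−1.29) it was −1.80 with 10%, −0.80 with 30%, −1.66 in deep and −0.43 in shallow barcodes, −1.47 with at least 1000 genes, −0.39 with equal weight, −1.42 without the 50 most abundant genes, −2.20 with TMM factors and −1.17 without the 5 deepest members. Nuclear respiratory subunits also stayed below 0. In CNT (−1.5) they were at −1.21 with 30%, −2.01 deep, −0.45 shallow, −1.82 with at least 1000 genes, −0.38 with equal weight and −2.63 with TMM factors. In 3CK (−1.08) they were at −1.56 with 10%, −0.61 with 30%, −1.38 deep, −0.40 shallow, −0.33 with equal weight and −1.99 with TMM factors. The interferon gamma list stayed between 4.28 and 5.12 in all 12 alternatives.

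Scaling moved the median of all genes, members over comparison: from 0.76 in CNT to −0.38 with TMM factors, 0.57 without the 50 most abundant genes and 0.12 with equal weight, and from 0.59 in 3CK to −0.32, 0.46 and −0.09. The share of genes at least 2-fold higher and lower went from 42.8% and 11.9% to 9.15% and 34.0% with TMM factors and to 7.49% and 4.29% with equal weight in CNT, and from 34.2% and 8.07% to 5.83% and 28.1% and to 7.51% and 11.4% in 3CK. Directions set against 0 therefore depend on the scaling, and the ribosomal and respiratory lists lay below the median of all genes under each of these scalings. Equal weight lets the shallow members, at a median of 903 and 1025 UMIs outside the MT- genes, outnumber the deep ones. No paired analysis was possible because each group is 1 library. Shallow barcodes hold too few UMIs to read a single gene in a single barcode, and leaving out a replicate was not possible.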

Other observations

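INS, the insulin gene, which was looked up after its values were seen, had 185 UMIs in 7 CNT members, 93.0% of them in 1 barcode, and 0 UMIs in 3CK members. Of the 259 UMIs of enteroendocrine markers in CNT members, 60.2% were in 1 barcode, so 1 member carried most of the signal of these markers. Whether it was also the barcode with most INS UMIs was not checked. EPHB2, an ephrin receptor of the crypt base, was at 139 CPM in CNT members against 20.1 CPM in the comparison (log2 ratio 2.79), with UMIs in 33 members and 16.6% of them in 1 barcode. LIF, a cytokine of the interleukin-6 family, was higher in members of both libraries, at 27.7 against 5.11 CPM in CNT and 30.2 against 10.3 CPM in 3CK, with 36 UMIs in 16 members and 27 UMIs in 15 members. NLRC5, the transactivator of MHC class I genes, was at 20.0 against 2.67 CPM in CNT (2.91) and 247 against 68.4 CPM in 3CK (1.85), while B2M, one of the genes it acts on, was lower in members by 0.64 and 0.54 on the log2 scale. The NLRC5 values rest on 26 UMIs in 13 CNT members, 26.9% of them in 1 barcode, and on 221 UMIs in 44 3CK members. A link between NLRC5 and B2M was not tested. CCL2, a monocyte chemoattractant, was at 17.9 CPM in 3CK members against 154 CPM in the comparison (−3.1). For these genes too, fewer cells of a type and less RNA per cell cannot be told apart.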
